A study of Mus musculus with 2 samples.

Results

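The genes described here are the pericentral cytochrome P450 (CYP) enzymes of the mouse liver and the receptors that sense foreign chemicals and switch such enzymes on. A list of 9 genes was taken by symbol: Cyp2e1, Cyp1a2, Cyp2c29, Cyp2c37, Cyp2a5 and Cyp3a11 for the enzymes, and Ahr, Nr1i2 and Nr1i3 for the receptors. Of these, 7 had a row among the 19465 genes of the count tables, 4 enzymes and 3 receptors, and all 7 passed the minimum of 200 unique molecular identifiers (UMIs, counts of captured probe molecules) over both sections. Cyp2c37 and Cyp2a5 had no row under their symbol or gene identifier in the tables used and were not analysed here. In GRCm38.p6 the receptor genes span chr12:35497979-35534989 (Ahr), chr16:38248349-38294849 (Nr1i2) and chr1:171213934-171218845 (Nr1i3). The measured enzyme genes span chr7:140763819-140774990 (Cyp2e1), chr9:57676937-57683655 (Cyp1a2), chr19:39287044-39330713 (Cyp2c29) and chr5:145854607-145879854 (Cyp3a11).

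The study placed liver sections of an AEG-1-WT and an AEG-1-C75S mouse on Visium slides, where each spot collects RNA of a small patch of tissue, to ask how AEG-1 and its palmitoylation shape expression across the lobule. AEG-1 (metadherin) is a scaffold protein, and AEG-1-C75S is a CRISPR/Cas9 knock-in line in which the cysteine that carries the palmitate is replaced by serine. Both animals were naive, untreated females of 8 weeks, littermates from a cross of heterozygotes, and a 5 µm section of formalin-fixed, paraffin-embedded tissue from the same lobe was read from each. The sections are called WT and C75S here. Each genotype was 1 animal and 1 section, so a difference between the sections has no replicate check and cannot be told apart from a difference between 2 animals, sections or libraries.

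Spots with at most 50000 UMIs were kept, 2309 of 2316 in WT and 2163 of 2167 in C75S, with 42246988 and 41674347 UMIs in all. The sections shared 1896 spot barcodes, which are positions on a slide and not shared cells. Levels are UMIs of a gene relative to all UMIs, scaled to counts per 1000000 (CPM) and summed over spots. The intervals are 95% intervals that cover counting error only. A spot holds several cells, so fewer cells of a type and less RNA per cell cannot be told apart. Markers of hepatocytes summed to 170155 CPM in WT and 175065 in C75S, which fits the label liver. None of the markers measured for any other cell type was at 0. The summed level of 4 portal connective tissue markers was 140 CPM in WT and 68.7 in C75S, and that of 4 Kupffer cell markers was 784 and 1046. The 5 cholangiocyte markers summed to 129 and 96.6 CPM, the 4 stellate cell markers to 551 and 703, the 3 red blood cell markers to 611 and 404, and the 3 sinusoidal endothelium markers to 295 and 310. Their part in the differences between the sections was not tested. Without the spots richest in duct and connective tissue markers, 1 in 10 of each section, the log2 ratio of Cyp3a11 between the sections was 0.42 and that of Nr1i3 was -0.27, beside 0.44 and -0.24 over all spots.

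P450 enzymes are haem proteins of the endoplasmic reticulum that oxidise drugs, toxins and the body's own lipids, and many of them are made mainly by hepatocytes near the central vein, where blood leaves the lobule. Ligand-activated receptors are textbook regulators of these genes: AHR, which binds DNA with ARNT and drives Cyp1a genes, and the nuclear receptors CAR (gene Nr1i3) and PXR (gene Nr1i2), which bind with RXR and drive Cyp2b, Cyp2c and Cyp3a genes. The Wnt signal from the central vein, through beta-catenin, is known to hold Cyp2e1, Cyp1a2 and Ahr in the pericentral zone.

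Promoters of 3 enzymes are shown because these genes bracket the patterns below, Cyp2e1 and Cyp1a2 with steep gradients along the lobule and Cyp3a11 with a shallow gradient and a higher level in C75S. The sequences are from RefSeq, build GRCm38.p6, end at the base before the annotated start, and run 5′ to 3′ on the gene's strand. Capitals mark the TATA box letters TATAAA or the nuclear receptor core AGGTCA.

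Cyp2e1, chr7:140763719-140763818, plus strand: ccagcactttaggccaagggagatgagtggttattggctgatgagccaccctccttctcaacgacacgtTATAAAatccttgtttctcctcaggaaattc
Cyp1a2, chr9:57683656-57683755, minus strand: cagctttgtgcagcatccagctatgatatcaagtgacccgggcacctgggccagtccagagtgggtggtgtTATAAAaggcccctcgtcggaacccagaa
Cyp3a11, chr5:145879855-145880034, minus strand: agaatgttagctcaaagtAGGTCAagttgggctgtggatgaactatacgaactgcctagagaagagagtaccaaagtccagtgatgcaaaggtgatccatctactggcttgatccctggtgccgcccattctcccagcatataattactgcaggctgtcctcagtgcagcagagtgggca

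Of the 9 listed genes, 8 had an entry of 250 bases before to 50 after the start, and Ahr had none. TATAAA on the gene's strand was in 5 of the 8 windows and in 8.32% of 32851 mouse promoters, and it began at position -31 from the start in Cyp2e1 and -29 in Cyp1a2. It began at -29 in Cyp2a5 and at -19 in Cyp2c29, whose gradient was also shallow. In Cyp3a11 the letters occurred only at -234. AGGTCA on either strand was in 3 of the 8, Cyp3a11, Cyp2c29 and Cyp2a5, and in 16.3% of all promoters. It lay at -162 in Cyp3a11 and at -154 in Cyp2c29. The TCF core CTTTGAT was found in Cyp2c29 alone, against 3.73% of all promoters. The letters bound by AHR (GCGTG, 32.4% of promoters), by PAR bZIP factors (TTANGTAA, 2.32%) and by HNF1 (its full consensus site, 0.00913%) were in none of the 8 windows. Of these motifs, TATAAA alone was added after the sequences had been seen. A match is a description of the letters and not a site in use.

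To place the spots along the lobule, each section was ranked by the ratio of 3 periportal genes (Hal, Gls2 and Hsd17b13) to the pericentral gene Oat and divided into 5 zones of equal size, named pericentral, inner mid-lobular, middle, outer mid-lobular and periportal, of 461 to 462 spots in WT and 432 to 433 in C75S. None of the 7 genes is part of the ranking. Hepatocyte genes outside it followed the axis. The periportal enzyme Cyp2f2 had a log2 ratio of pericentral over periportal level, called the log2 gradient here, of -2.07 in WT and -1.85 in C75S, and the pericentral glutamate transporter Slc1a2 had 3.68 and 3.44. Markers of portal tracts were not highest in the periportal zone. The cholangiocyte markers summed to 234 CPM in the outer mid-lobular and 195 in the periportal zone of WT. In C75S they summed to 158 and 135. Portal connective tissue markers summed to 180 and 131 CPM in these zones of WT, and to 77.8 and 65.6 in C75S, where the pericentral zone had 79.7. Among the ranking genes, Gls2 and Oat were themselves lower in C75S, by log2 ratios of -0.66 and -0.41. Whether that changed how sharply the spots were sorted was not tested. The median UMIs per spot of the zones ran from 16379 to 17510 in WT and from 17785 to 20960 in C75S.

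Cyp2e1, which oxidises ethanol, acetone and paracetamol, and Cyp1a2, which oxidises caffeine and aromatic amines, had the steepest gradients of the set. In WT the Cyp2e1 level ran from 12981 CPM in the pericentral zone through 9367, 6460 and 4382 to 2680 in the periportal zone. In C75S it ran from 11989 through 8674, 6153 and 4560 to 2822. Every step was downward and clear of its counting interval in both sections. The Cyp1a2 level ran from 907 CPM through 596, 399 and 294 to 187 in WT. In C75S it ran from 793 through 508, 380 and 280 to 187, again with every step clear of its counting interval. The ratio of pericentral to periportal level of Cyp2e1 was 4.84 in WT and 4.25 in C75S. That of Cyp1a2 was 4.85 and 4.24, so the genes had gradients of nearly the same size within each section.

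Their ratio was the same at both ends of the axis and somewhat higher between them. For each Cyp1a2 UMI there were 14.3 Cyp2e1 UMIs (interval 14.0 to 14.6) in the pericentral zone of WT and 14.3 (13.6 to 15.1) in its periportal zone, with a highest value of 16.2 (15.6 to 16.8) in the middle zone. In C75S the corresponding numbers were 15.1 at both ends, with a highest value of 17.1 (16.5 to 17.6) in the inner mid-lobular zone. These numbers compare probe counts at different positions and give no relative amount of the transcripts. Across 10 finer bins of the axis, both genes stepped down in 9 of 9 steps in both sections, and bin 1 exceeded bin 10 6.94-fold for either gene in WT, and 6.19-fold for Cyp2e1 and 6.29-fold for Cyp1a2 in C75S. Cyp1a2 dropped below the midpoint of its range by bin 4 and Cyp2e1 by bin 5, in both sections.

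**Figure D1:**
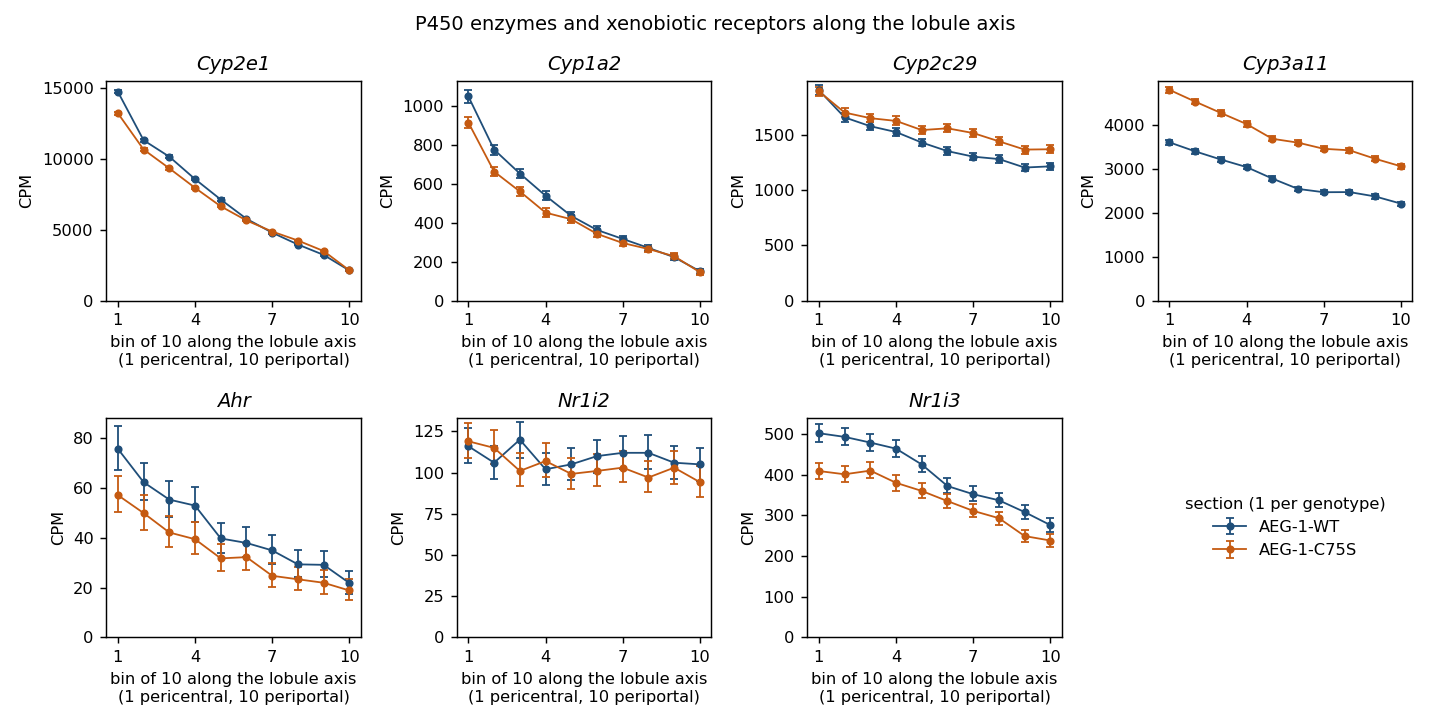
Level (CPM, linear axis from 0) of the 7 measured genes in each of 10 bins of the lobule axis, from pericentral (1) to periportal (10), in the WT (blue) and C75S (orange) sections, with bars for the 95% Poisson interval. Cyp2e1 and Cyp1a2 decline steeply, Ahr less so, Cyp2c29, Cyp3a11 and Nr1i3 by less than 2-fold, and Nr1i2 is nearly level, while the orange Cyp3a11 line lies above the blue line in all 10 bins.

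Cyp2c29 and Cyp3a11 were expressed across the whole lobule with a shallow pericentral tilt. Cyp2c29, a CAR-responsive enzyme that oxidises arachidonic acid, ran from 1781 CPM through 1555, 1395 and 1295 to 1212 in WT, a ratio of 1.47. In C75S it ran from 1805 through 1643, 1555 and 1483 to 1371, a ratio of 1.32. Cyp3a11, the main PXR-responsive drug and steroid hydroxylase of mouse liver, ran from 3495 CPM through 3123, 2659 and 2467 to 2289 in WT, a ratio of 1.53. In C75S it ran from 4665 through 4147, 3637 and 3437 to 3142, a ratio of 1.48. Every step between neighbouring zones was downward and clear of its counting interval for both genes in both sections. The pericentral zone held 24.2% of the Cyp2c29 UMIs of WT and 24.4% of the Cyp3a11 UMIs, against 35.5% for Cyp2e1 and 37.4% for Cyp1a2.

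The receptors had 3 different patterns. The Ahr level, AHR being the receptor for dioxins and other planar aromatic compounds, ran from 68.7 CPM through 54.1, 38.8 and 32.1 to 25.5 in WT, a ratio of 2.70 with a log2 interval of 1.20 to 1.67. In C75S it ran from 53.6 through 40.8, 32.0 and 24.0 to 20.4, a ratio of 2.63 with a log2 interval of 1.13 to 1.67. Every step was downward, and the last one in C75S, from 24.0 to 20.4 CPM, was within its counting interval. The Ahr gradient thus lay between those of Cyp1a2 and Nr1i3.

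Nr1i3, which codes for CAR, ran from 497 CPM through 472, 399 and 345 to 292 in WT. In C75S it ran from 405 through 395, 347 and 302 to 244, and the first step, from 405 to 395 CPM, was within its counting interval. The ratio of the ends was 1.70 and 1.66. Relative to its own range, the Nr1i3 level fell later along the axis than that of the enzymes. It went below the midpoint of its range in bin 6 in WT and bin 7 in C75S, against bins 4 to 5 for the 4 enzymes. This describes the shape and not the size of the fall, which in WT was larger for Nr1i3 than for Cyp2c29 (1.47) and Cyp3a11 (1.53).

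Nr1i2, which codes for PXR, was the gene of the set with no clear position in WT, at 111, 111, 107, 112 and 105 CPM from the pericentral to the periportal zone. The log2 ratio of its ends was 0.07 (-0.06 to 0.21), and no step was clear of its counting interval. In C75S it was at 117, 104, 100, 100 and 98.5 CPM, a log2 ratio of 0.25 (0.11 to 0.39), with the first step alone clear of its interval. The difference in log2 gradient between the sections, 0.17, had an interval of -0.02 to 0.37, so it was not detectable at this depth.

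By a rule of at least 2-fold higher in the pericentral than the periportal zone, 3 of the 7 genes were pericentral in WT, Cyp2e1, Cyp1a2 and Ahr, where 1.86% of 10389 genes with at least 200 UMIs passed. The same 3 passed in C75S, where 1.41% of all genes did. With spots thinned to 3000 UMIs the axis was ranked anew from the thinned counts. Ahr then no longer passed in either section, with log2 gradients of 0.85 in WT and 0.86 in C75S. Cyp2e1 and Cyp1a2 still passed, with smaller gradients in WT of 1.84 and 1.77, beside 2.28 for both without thinning. The parts of the sparser ranking and of the depth of Ahr itself were not tested. The median log2 gradient over all 10389 genes was 0.13 in WT and 0.09 in C75S.

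The spots showed how much of the variation of each gene lay along the axis. The 10 bins accounted for 75.8% of the variance of the log2 level over spots for Cyp2e1 in WT and 68.1% in C75S, and for 56.5% and 50.9% for Cyp1a2. For Cyp3a11 the shares were 36.8% and 41.3%, for Cyp2c29 25.7% and 14.8%, and for Nr1i3 17.6% and 13.9%. Ahr had 8.36% and 4.99% and Nr1i2 0.511% and 1.06%. Counting noise lowers these shares most in the genes with few UMIs, so they are not comparable between genes of different depth. A mean spot of WT held 131 UMIs of Cyp2e1, 8.71 of Cyp1a2 and 0.802 of Ahr.

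Levels of Cyp2e1 and Cyp1a2 also varied together among spots of the same bin. The UMIs expected from the bin level and the spot total were subtracted from those seen. The difference was divided by the square root of the expected number. The Pearson correlation of these residuals was 0.48 over 2309 spots in WT and 0.49 over 2163 in C75S. Cyp2e1 and Cyp2c29 had 0.36 and 0.31, Cyp2e1 and Cyp3a11 0.20 and 0.32, and Cyp2e1 and Nr1i3 0.22 and 0.24. The genes of a pair share the spot and its total, and position within a bin still varies. Pairs of receptors had values from -0.01 to 0.04 in WT and are not read, because Ahr and Nr1i2 are sparse.

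At least 1 Ahr UMI was found in 52.4% of the spots of WT (50.3 to 54.4, exact binomial interval) and 44.3% of those of C75S (42.2 to 46.4). With every spot thinned to 3000 UMIs, the shares were 13.5% and 9.21%. The share of spots with an Nr1i2 UMI was 83.2% and 80.8%, and 27.4% and 27.8% after thinning. Nr1i3 was found in 99.0% and 97.9% of spots, and the enzymes in at least 96.0%. As a background, 970 olfactory receptor genes, which liver should lack, had a median of 0 CPM and a 95th percentile of 0.0237 CPM in WT and 0.0240 in C75S, although the highest of them reached 17.0 and 18.6 CPM.

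Over whole sections, Cyp3a11 was the gene of the set that was higher in C75S by more than the threshold used here, a log2 ratio of 0.32 in either direction. It had 118544 UMIs or 2806 CPM in WT and 158582 UMIs or 3805 CPM in C75S, 1.36-fold more, a log2 ratio of 0.44 (0.43 to 0.45). So 1 of the 7 genes was higher by that rule, where 5.90% of the 10389 genes were. The excess was present at each position, with log2 ratios of 0.42, 0.41, 0.45, 0.48 and 0.46 from the pericentral to the periportal zone, and the difference in gradient between the sections was -0.04 (-0.08 to -0.01).

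Ahr was the gene of the set that was lower by the same rule, with 1851 UMIs or 43.8 CPM in WT and 1421 UMIs or 34.1 CPM in C75S, 1.28-fold less, a log2 ratio of -0.36 (-0.46 to -0.26). So 1 of the 7 genes was lower by that rule, against 11.6% of all genes, and the median log2 ratio of all genes was -0.05. The value was near the threshold: with each of 3 other scalings it no longer passed, and with TMM factors it was -0.31. The log2 ratio was between -0.42 and -0.28 in all 5 zones. The Ahr gradient differed by -0.04 (-0.38 to 0.31), an interval too wide to detect a change of slope at this depth.

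Nr1i3 was at 401 CPM in WT and 339 in C75S, 16947 and 14119 UMIs. The log2 ratio was -0.24 (-0.28 to -0.21), short of the threshold, with values from -0.30 in the pericentral zone to -0.19 in the outer mid-lobular zone. Nr1i2 was at 109 and 104 CPM, a log2 ratio of -0.07 (-0.13 to -0.01). Both values were inside the range between the 5th and the 95th percentile of all genes, -0.48 to 0.35, as was that of Ahr.

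Scaled to all UMIs, Cyp2e1 differed slightly between the sections, in opposite directions at the ends of the lobule. Over whole sections it was at 7169 CPM in WT and 6838 in C75S, a log2 ratio of -0.07 (-0.08 to -0.06). In the pericentral zone the log2 ratio was -0.11 (-0.13 to -0.10) and in the periportal zone 0.07 (0.05 to 0.10). The other scalings moved every gene by 0.04 to 0.06, and with TMM factors the whole-section ratio of Cyp2e1 was -0.01. The zone values were not recomputed with those scalings. Cyp1a2, at 476 and 430 CPM, had a log2 ratio of -0.15 (-0.18 to -0.12) over whole sections, of -0.20 in the pericentral and -0.23 in the inner mid-lobular zone, and of -0.00 in the periportal zone. Cyp2c29, at 1447 and 1572 CPM, had 0.12 (0.10 to 0.14) over whole sections, 0.02 in the pericentral and 0.18 in the periportal zone.

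These 3 enzymes had a shallower gradient in C75S. The log2 gradient was smaller by an amount clear of counting error, with differences of -0.19 (-0.22 to -0.16) for Cyp2e1, -0.19 (-0.31 to -0.08) for Cyp1a2 and -0.16 (-0.21 to -0.11) for Cyp2c29. None of the 7 genes had a log2 gradient that differed by 0.32 or more between the sections, where 23.2% of all genes did. That share includes genes with far fewer UMIs than the 7, which can pass 0.32 by counting error alone. Even for Ahr, the sparsest of the 7, the interval of the difference was -0.38 to 0.31. The share was not matched for depth, so it does not show whether the gradients of the 7 genes were unusually stable. The differences of these 3 enzymes kept their sign under all 11 other settings, with ranges of -0.25 to -0.14 for Cyp2e1, -0.22 to -0.09 for Cyp1a2 and -0.19 to -0.12 for Cyp2c29. The interval of Cyp3a11 was clear of 0 too, at -0.04 (-0.08 to -0.01), but its sign changed in 2 of the 11 settings. The median log2 gradient of all genes was also lower in C75S, at 0.09 beside 0.13 in WT. With each section centred on its median gene, the differences of Cyp2e1, Cyp1a2 and Cyp2c29 were -0.15, -0.15 and -0.12. Of 9 zonated genes outside the ranking that served to check the axis, 6 also had a shallower gradient in C75S, Cyp2f2, Sds, Pck1, Ctsc, Slc1a2 and Lhpp, and 3 a steeper one, Arg1, Rhbg and Gulo. They were sorted by sign alone, without counting intervals or the share of all genes. Some differed little, such as Ctsc, at -1.25 in WT and -1.21 in C75S, and Gulo, at 2.52 and 2.57. The 11 settings included rankings of the spots by other genes. Ranked by Cyp2f2, Pck1 and Sds over Slc1a2, Lhpp and Rhbg, the differences of Cyp2e1, Cyp1a2 and Cyp2c29 were -0.14, -0.21 and -0.17. Without Oat they were -0.18, -0.18 and -0.15, and with Oat alone -0.19, -0.17 and -0.15. The part of the sorting of spots in the shallower gradients was not tested.

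**Figure D2:**
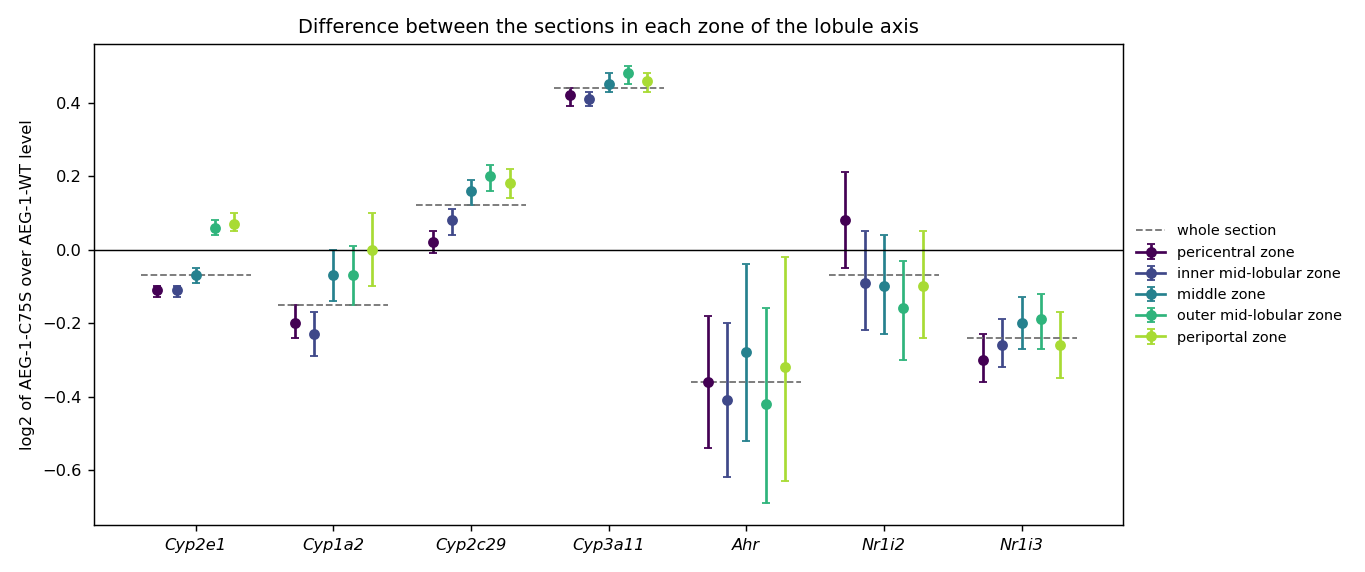
Log2 ratio between the C75S and the WT level for each of the 7 genes in each zone of the axis (points, dark for pericentral to light for periportal, bars for the 95% interval of counting error) and over the whole sections (dashed line). Cyp3a11 is above 0 in all 5 zones and Ahr and Nr1i3 are below 0 in all 5, whereas Cyp2e1 goes from -0.11 to 0.07 along the axis.

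The 7 genes were next set beside genes of the same pathways. As a background for each list below, 5.90% of the 10389 genes were higher in C75S by the rule and 11.6% lower. By the 2-fold rule 1.86% of them were pericentral in WT and 1.41% in C75S. The lists are short, and their counts are descriptions that were not tested against these shares. Of 41 CYP1, CYP2 and CYP3 genes with a row, 24 had at least 200 UMIs, and their median log2 ratio was -0.02. In C75S, 3 of the 24 were higher by the rule: Cyp3a44 at 0.65, Cyp2j9 at 0.53 and Cyp3a11 at 0.44. Another 5 were lower, with Cyp2b13 at -1.18 and Cyp2u1 at -0.70 farthest from 0, followed by Cyp2c69 at -0.50, Cyp3a13 at -0.44 and Cyp2a4 at -0.35. Within the CYP3A genes the sections thus differed in both directions, with Cyp3a11 and Cyp3a44 higher and Cyp3a13 lower. The 2-fold pericentral rule was passed in WT by 5 of the 24, Cyp2e1, Cyp1a2, Cyp2c69, Cyp2c54 and Cyp2c55, and Cyp2c54 and Cyp2c55 did not pass in C75S, where Cyp3a44 did, at 1.14. Many CYP genes have close paralogs that could share probes, so values of single CYP genes, and that of Cyp2a4 beside its near copy Cyp2a5 above all, are uncertain to that extent.

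**Figure D3:**
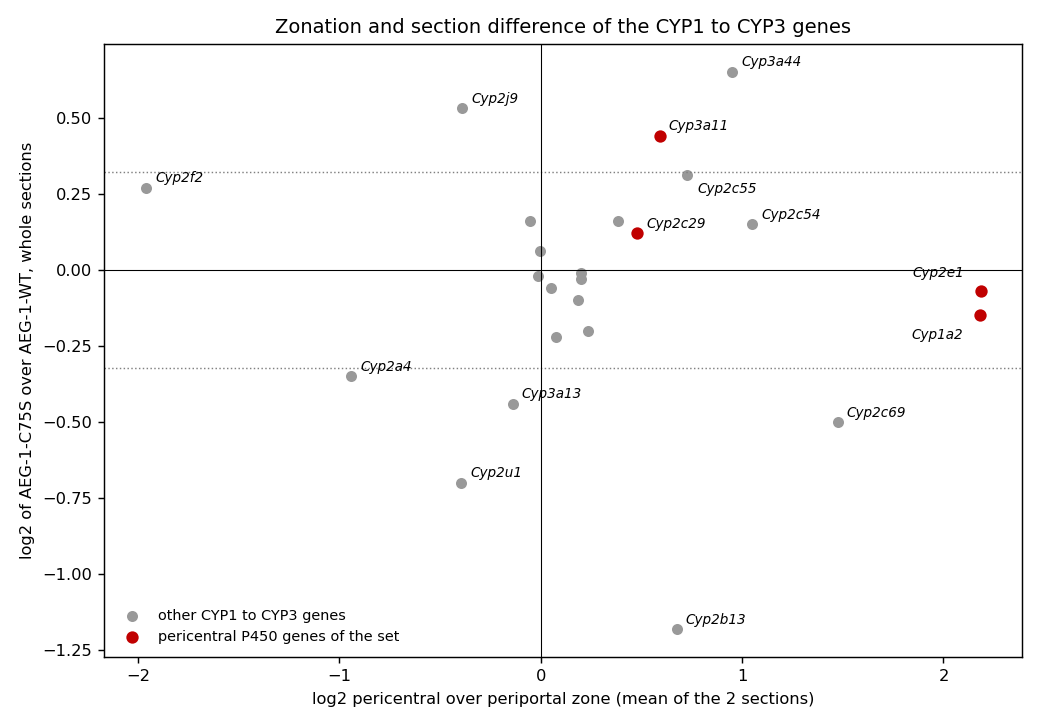
Each of the 24 compared CYP1, CYP2 and CYP3 genes by its log2 ratio of pericentral over periportal level (horizontal, mean of both sections) and its log2 ratio between the sections (C75S to WT) (vertical), with dotted lines at the threshold of 0.32 in either direction and names for genes beyond them, for genes at least 0.5 from 0 on the horizontal axis and for the genes of the set (red). Cyp2e1 and Cyp1a2 lie far to the right and close to 0 on the vertical axis, and Cyp3a11 lies above the upper line.

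The CAR and PXR targets went in both directions. The few AHR targets that could be compared were below 0, as was the median of all genes, at -0.05. Of 8 AHR targets 3 had enough UMIs: Cyp1a2, the oxidoreductase Nqo1 at 21.3 CPM in WT and 16.8 in C75S (log2 ratio -0.34), and Tiparp at 4.92 and 4.44 (-0.15, interval -0.44 to 0.14). Of 16 CAR targets 14 had enough UMIs, 3 were higher and 1 lower, with a median log2 ratio of 0.11. The stress gene Gadd45b was at 8.76 and 21.6 CPM (1.30) and Alas1, the first and rate-limiting enzyme of haem synthesis, at 268 and 159 CPM (-0.75). Of 13 PXR targets 11 had enough UMIs, 2 were higher, Cyp3a11 and Aldh1a7, and 2 lower, Alas1 and the drug exporter Abcb1a, with a median of -0.00. Cyp3a11, Cyp2c29 and Cyp1a2 stand in these lists too, and the CAR and PXR lists share 8 of these genes.

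The receptors' partners were nearer to 0 than Ahr. Rxra, the partner of CAR and PXR, was at 266 CPM in WT and 235 in C75S (-0.18), and Rxrb at 52.1 and 45.7 (-0.19). Arnt, the partner of AHR, was at 44.0 and 45.4 CPM (0.04, interval -0.05 to 0.14). The chaperones that hold AHR or CAR in the cytoplasm included Hsp90aa1, at 54.1 and 45.3 (-0.26), and Dnajc7, at 52.1 and 53.5 (0.04). Of 8 partners and chaperones 5 had enough UMIs, and 0 passed the threshold in either direction.

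Of 10 coregulators 1 passed, where 5.90% of all genes were higher and 11.6% lower. It was Nr0b2, which codes for the repressor SHP, at 40.7 CPM in WT and 83.1 in C75S (1.03). Its log2 gradient was -0.07 and 0.55. The coactivator Ppargc1a was at 13.0 and 10.6 CPM (-0.29). Of 10 hepatocyte transcription factors 3 were higher, Onecut1 (0.93), Foxa3 (0.49) and Foxa1 (0.33), and none was lower, with a median of 0.09. Hnf4a, which many P450 genes depend on, was at 295 and 312 CPM (0.08).

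Among 13 genes of electron transfer to P450 enzymes, haem supply and related steps, 2 were higher and 1 lower, with a median of -0.14. Alas1 was the lower gene, the haem-degrading enzyme Hmox1 was higher (0.45), as was the epoxide hydrolase Ephx1 (0.37). Neither of the higher genes supplies electrons or haem. Por, the reductase that passes electrons to every microsomal P450, was at 476 CPM in WT and 389 in C75S (-0.29) and had log2 gradients of 0.81 and 0.83, close to those of Nr1i3.

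The PAR bZIP factors, clock-controlled regulators known to drive the daily rhythm of Nr1i3, Por and Alas1, were in the list farthest from 0. The median of -0.84 was over 4 genes and included Nfil3, which is an opponent of these factors. Dbp was at 223 CPM in WT and 76.9 in C75S (-1.54), Tef at 111 and 47.1 (-1.23) and Hlf at 62.5 and 46.1 (-0.44). Their opponent Nfil3 was at 10.2 and 12.7 CPM (0.32), just under the threshold before rounding. Nr1i3, Por and Alas1 were lower in the same section by -0.24, -0.29 and -0.75. The time of day at which each animal was killed is not given in the sources used here, and the part of these factors in the levels of the 7 genes was not tested.

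Targets of the Wnt signal were pericentral in both sections. The list was drawn from known pericentral genes. Of 10 with enough UMIs, 9 were at least 2-fold pericentral in each section, like Cyp2e1, Cyp1a2 and Ahr. Between the sections 2 were lower, Rnf43 (-0.52) and Lhpp (-0.43), and none higher, where 11.6% of all genes were lower and 5.90% higher. The median was -0.19, beside values of -0.07, -0.15 and -0.36 for Cyp2e1, Cyp1a2 and Ahr.

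**Figure D4:**
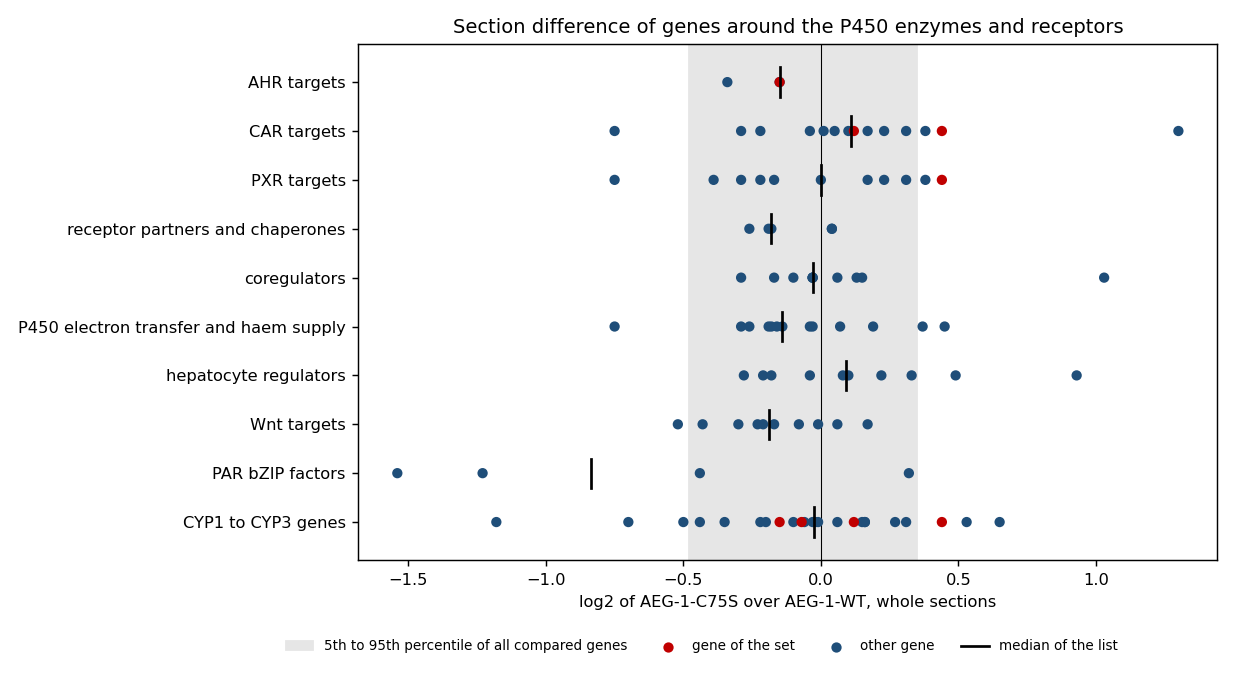
Log2 ratio between the sections (C75S to WT) for each compared gene (points, genes of the set in red) of 10 gene lists, with the median of each list (black bar) and the range from the 5th to the 95th percentile of all 10389 genes (grey). The median of the PAR bZIP list, with Nfil3 included, lies at -0.84, outside the grey range, and the other medians lie between -0.19 and 0.11.

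The genes whose profile was most like that of each gene were found by the Pearson correlation of log2 levels over 20 points, 10 bins in each of 2 sections, among 4548 genes with at least 2000 UMIs. The listed genes and the ranking genes were left out of these candidates. The points share a section and an axis, so the coefficients describe likeness only. Cyp2e1 was most like Gulo (0.992), Pon1 (0.991) and Cyp27a1 (0.987), and Cyp1a2 was most like Gulo (0.997), Rgn (0.995) and Lect2 (0.992). Gulo, the last enzyme of vitamin C synthesis, stood first for both, with log2 gradients of 2.52 and 2.57. The coefficient compares shape and not steepness. Pon1, Cyp27a1 and Rgn had log2 gradients of 1.04, 0.98 and 1.04 in WT, beside 2.28 for Cyp2e1 and Cyp1a2. Cyp2c29 was most like Fmo1 (0.983), another drug-oxidising enzyme, Rbp4 (0.979) and Glyat (0.977).

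Cyp3a11 was most like the fatty acid hydroxylases Cyp4a14 (0.993) and Cyp4a10 (0.990) and the pantetheinase Vnn1 (0.987). These 3 genes were themselves higher in C75S, by log2 ratios of 0.74, 0.82 and 0.60 beside 0.44 for Cyp3a11. Likeness was computed over both sections, so the choice of these genes favours ones that share this difference. Ahr was most like Cyb5a (0.993), Sod1 (0.990) and Rnase4 (0.987). Nr1i3 was most like the sulfotransferase Sult2a8 (0.988), Csad (0.984), an enzyme of taurine synthesis that was lower in C75S by -0.57, and Lifr (0.981). Nr1i2, with its flat profile, had the lowest values, 0.865 for Nelfb, 0.817 for Tut7 and 0.799 for Cryz.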

How the data were processed

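The deposited values are raw UMI counts per gene and spot, which the authors made from Visium probe libraries of FFPE sections with Space Ranger 2.0.1 and the mm10 build, per the labels. The deposited gene and barcode tables hold other, non-numeric entries that name the rows and spots. Seurat 4.3.0, named in the submitters' notes, was not used here. The probes are short and their number per gene is not given in the sources used here, so levels are not compared between genes.

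Spots above 50000 UMIs were removed. Counts were summed per section and per zone (5) or bin (10) of the within-section rank of (Hal + Gls2 + Hsd17b13 + 1) / (Oat + 1), and divided by the total. The 10389 of 19465 genes that reached 200 UMIs were compared, without a test, since there was 1 section per genotype and spots are not replicates. Intervals were exact Poisson for sums, exact binomial (Clopper-Pearson) for shares and for ratios of sums, and normal for differences of gradients, all at 95%. UMIs remove copies made by PCR, and the intervals cover counting error only. Correlations between spots used count residuals around the number expected from the bin level and the spot total, scaled by its square root. The variance shares used log2 of the share of the spot total after 1 UMI was added, and likeness added 0.5 UMI to each sum. Named genes were the listed ones, up to 2 genes of each list farthest from 0, all partners and PAR bZIP factors, and the 3 most alike genes. A gene of the list of partners and chaperones is not reported here and was taken out of its counts. The 7 genes' CYP relatives beyond the thresholds, Foxa1, Hnf4a, Por, Ephx1, Aldh1a7 and Abcb1a were named after their values were seen. The listed genes, lists and thresholds were chosen with earlier results of these data known. Python 3.11.15, numpy 2.4.6, scipy 1.17.1, pandas 2.3.3, matplotlib 3.10.9, R 4.3.3 and edgeR 4.0.16 (TMM factors only) were used. The ratio scripts were tested on counts simulated with counting error alone. That checks the code and says nothing about variation between spots, sections or animals.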

Additional observations from a re-analysis of the deposited data

Results flagged for a closer look

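The Cyp2e1 log2 ratio between the sections (C75S to WT) was -0.11 in the pericentral zone and 0.07 in the periportal zone, opposite directions at the ends of the lobule axis with both counting intervals clear of 0. With 1 section per genotype the difference between the zones was not tested. The other scalings moved every gene by 0.04 to 0.06, and these zone values were not recomputed with them. The values were 12981 and 11989 CPM in the pericentral zone and 2680 and 2822 CPM in the periportal zone.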

How the results depend on the processing

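No paired analysis was possible because each genotype had 1 section. With totals without the 20 most abundant genes, with TMM factors, with centring on the median gene, and at 1.5-fold, 0 of the 7 genes were lower in C75S in place of 1. At 1.5-fold 0 were higher in place of 1. Of the CYP1 to CYP3 genes, 5 were higher in place of 3 with TMM factors and with median centring, and at 1.5-fold 1 was higher and 2 were lower in place of 5. At 1.5-fold, 5 of the 7 genes were pericentral in WT in place of 3, and 4 in C75S. With spots thinned to 3000 UMIs the count was 2 in both sections, since Ahr no longer passed. The shares of all genes passing under these other settings are not given here. The counts therefore show only how the calls depend on the setting and cannot be set against a background. Of 76 recomputed counts, 66 stayed within 1.5 times their value, those after thinning included. Applying the scalings other than TMM to the gradients was chosen after seeing the data. The 3 scalings moved the median gene by 0.04, 0.06 and 0.05 on the log2 scale.

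Of 287 recomputed values of single genes none with a called direction reversed, and 113 moved beyond their counting interval. The log2 ratio of Cyp3a11 ranged from 0.42 to 0.50, that of Ahr from -0.56, with spots thinned to 3000 UMIs, to -0.31, and that of Nr1i3 from -0.27 to -0.16. The Ahr gradient ranged from 0.85 to 1.80 in WT and from 0.86 to 1.60 in C75S, with the lowest values after thinning. Thinning also left fewer UMIs of the ranking genes to sort the spots. The Cyp2e1 gradient of WT ranged from 1.84 after thinning to 2.79 between the outer 2 of 10 bins. The Nr1i2 gradient of WT changed sign in 3 of 11 settings. Depth limits Ahr most, with under 1 UMI per spot, and the single section per genotype limits every difference between the sections.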

Other observations

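Among the targets of CAR and PXR, the conjugating enzymes and transporters named here had smaller differences between the sections than Cyp3a11. They were picked for description after their values were seen. Ugt1a1, which glucuronidates bilirubin and drugs, was at 505 CPM in WT and 523 in C75S, a log2 ratio of 0.05 (0.02 to 0.08). The canalicular exporter Abcc2 was at 278 and 279 CPM (0.01, interval -0.03 to 0.04) and the sinusoidal exporter Abcc3 at 148 and 174 (0.23). The uptake carrier Slco1a4 was at 157 and 139 CPM (-0.17), and the glutathione transferase Gstm1 at 567 in both (-0.00, interval -0.03 to 0.03). The drug exporter Abcb1a came nearest to Cyp3a11 in size but was lower in C75S, past the threshold. It was at 15.7 and 12.0 CPM (-0.39, interval -0.56 to -0.22).

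Targets of CAR and PXR differed in their place along the axis. Gstm3, another glutathione transferase, had a log2 ratio of pericentral to periportal level of 2.30 in WT and 1.74 in C75S. The aldehyde dehydrogenase Aldh1a7 had 0.08 and -0.10, and Slco1a4 had -0.04 and -0.09. The exporter Abcb1a was higher at the periportal end, with -0.85 and -0.93. Aldh1a7 and its close relative Aldh1a1, the retinal dehydrogenase, were on opposite sides of 0 between the sections, at 0.38 and -0.22, and as near relatives they may share probes.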
